A study of Mus musculus with 6 samples.

Results

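The 10 genes described here are the BMP ligands Bmp2, Bmp4, Bmp6 and Gdf5, the receptors Bmpr1a, Bmpr1b and Bmpr2, the secreted antagonists Nog and Grem1, and the target gene Id1. They were chosen by name from the 55416 genes of the deposited expression table, and all 10 were detected in every library and passed the filter on low counts, which kept 15269 genes. RNA-seq had been run on primary mouse chondrocytes, the cartilage cells of the joint, transfected with a negative control siRNA (siNC, n = 3) or with an siRNA against Pkm2 (siPkm2, n = 3). Pkm2 encodes an isoform of pyruvate kinase, the last enzyme of glycolysis. The comparison asked how the transcriptome of these cells differed after the knockdown.

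The siNC libraries are labelled as wild type and the siPkm2 libraries as knockdowns of PKM2, PKM3 and PKM4 for replicates 1, 2 and 3, although the titles name siPKM2 for all. All cells were grown in DMEM/F12 with fetal serum and transfected with a lipid reagent. The labels give knee joints of neonatal mice as the source, whereas the supplementary methods describe adult mice. Strain, sex, the number of animals behind a culture and the time of harvest for sequencing are not given in the sources used here. The study's methods describe its experiments in general as independent and at least in triplicate, but the labels do not say which preparation each library came from. The p-values measure the spread between these libraries, part of which may be technical.

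Bone morphogenetic proteins are secreted dimers of the TGF-β superfamily. They bind a complex of type I and type II serine/threonine kinase receptors, the type I receptor phosphorylates SMAD1, SMAD5 and SMAD9, and these enter the nucleus with SMAD4 and switch on genes such as Id1. Noggin and Gremlin 1 bind the ligands outside the cell and keep them from the receptors. In the growing skeleton the pathway drives chondrocyte differentiation, and GDF5 marks and shapes the forming joints.

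The libraries held between 22317065 and 25691096 estimated counts. Levels are given as CPM, counts scaled to library size with TMM factors, and levels between genes as TPM, which is also scaled for gene length. Pkm, which the siRNA targets, had 2335, 2746 and 1674 CPM in siNC replicates 1, 2 and 3 and 336, 541 and 309 CPM in siPkm2, so the groups did not overlap. Its log2 fold change was -2.51 ± 0.33 without the block (adjusted p 0.0738) and -2.53 ± 0.13 with the replicate number as a block (adjusted p 0.00932), over all isoforms of the gene. The chondrocyte markers Col2a1, Acan, Sox9, Comp, Col9a1, Col11a2, Matn3 and Hapln1 were present in every library. Replicate 2 of both groups stood apart, and the first principal component, with 54.2% of the variance, separated these libraries from the other 4. The second component, with 27.5%, separated the groups, at -14.3, -35.0 and -37.0 in siNC and 55.2, 4.13 and 27.1 in siPkm2. The summed level of the chondrocyte markers was 10031 and 13988 CPM in the siNC and siPkm2 libraries of replicate 2, against 38941 to 46449 CPM in the others. Col2a1 was the largest part of this sum in every library. Sox9 differed less, with 82.5 and 128 CPM in replicate 2 against 145 to 252 CPM in the others. In bulk RNA, fewer cells of a type and less RNA per cell cannot be told apart. Libraries with the same number deviated together from their group means (r across genes 0.716, 0.794 and 0.720), so they are treated below as 3 replicate pairs and each gene is also given pair by pair.

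The sequence immediately upstream of the annotated transcription start is shown for Bmp4, whose difference turned in replicate pair 2, for Grem1, the main antagonist by TPM, and for Bmpr1b, which was higher in siPkm2 in each pair. It comes from RefSeq on GRCm38.p6, whose promoter table held 6 of the 10 genes, and is the 250 bases before the start on the gene's own strand (minus for all 3). Capitals mark GGGCGG (GC box), GGCGCC (a GC-rich element bound by SMAD1/5) and TATAAA, each searched on both strands.

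Bmp4, chr14:46390670-46390919, directly upstream of the gene: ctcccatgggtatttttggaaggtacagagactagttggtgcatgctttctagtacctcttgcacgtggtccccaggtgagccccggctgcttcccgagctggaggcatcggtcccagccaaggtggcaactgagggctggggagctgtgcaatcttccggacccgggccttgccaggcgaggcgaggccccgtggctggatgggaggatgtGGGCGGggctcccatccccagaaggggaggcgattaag

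Grem1, chr2:113758649-113758898, directly upstream of the gene: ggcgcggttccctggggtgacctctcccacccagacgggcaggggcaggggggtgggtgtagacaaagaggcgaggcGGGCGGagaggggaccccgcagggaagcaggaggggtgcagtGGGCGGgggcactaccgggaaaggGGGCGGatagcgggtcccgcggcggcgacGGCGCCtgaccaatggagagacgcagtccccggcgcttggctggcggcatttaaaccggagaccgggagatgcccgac

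Bmpr1b, chr3:141982265-141982514, inside an intron of the longest annotated form: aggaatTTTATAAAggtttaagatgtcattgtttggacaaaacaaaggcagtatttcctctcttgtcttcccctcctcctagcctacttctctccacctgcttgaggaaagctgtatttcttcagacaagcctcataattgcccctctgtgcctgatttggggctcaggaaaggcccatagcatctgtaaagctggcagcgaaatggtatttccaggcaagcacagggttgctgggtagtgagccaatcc

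The Bmp4 window held 1 GC box and the Grem1 window 3 GC boxes and 1 GGCGCC, and their GC contents were 63.2% and 72.0%. The Bmpr1b window had a GC content of 46.8% and held TATAAA on both strands at one place, where the 2 matches overlap. It is the most upstream of 3 RefSeq starts of Bmpr1b, and the windows of the other 2 held no TATAAA and had GC contents of 52.8% and 56.4%. Of 32851 promoter windows of this length, 32.7% held a GC box, 9.59% GGCGCC and 12.4% TATAAA. These matches describe letters and were not tested for binding.

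A gene counted as called when its adjusted p was under 0.05 and its level differed more than 2-fold. Without a block, edgeR's quasi-likelihood test called none of the 10 genes, nor any gene of the whole table (0%). At an unadjusted p under 0.05, 1 of the 10 passed (Bmp6), beside 17.6% of all genes tested, and DESeq2 called none of the 10 but 430 genes in all. With the replicate pairs as a block, the share of all genes called was 2.65% higher and 3.18% lower in siPkm2, and again no member was among them. Without the fold threshold, 1 member passed the blocked test (Bmp6, higher), beside 12.3% of all genes higher and 10.8% lower. The median log2 fold change over the 10 members was -0.06 without the block and 0.10 with it, beside -0.02 and -0.01 over all genes tested.

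**Figure D1:**
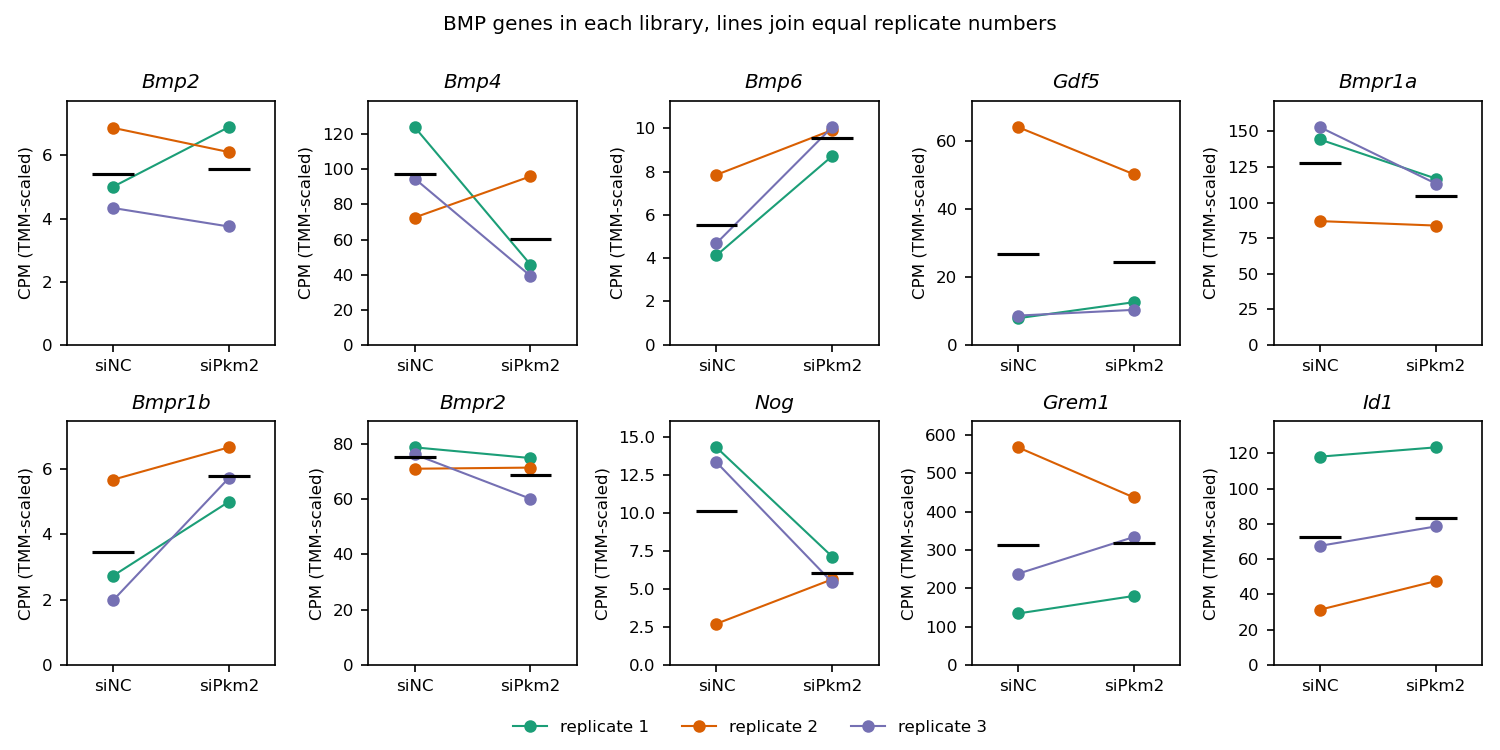
TMM-scaled CPM of the 10 genes in siNC and siPkm2 (y axes start at 0), with a point for each library, lines joining equal replicate numbers and black bars for group means. The Bmp6 points of siPkm2 all lie above those of siNC, while for Bmp4, Gdf5, Nog and Grem1 the line of replicate 2 slopes against the other 2 lines.

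Among the ligands, Bmp6 was the member whose groups separated. BMP6 is a ligand known from hypertrophic cartilage and from iron regulation in the liver. Bmp6 (ENSMUSG00000039004, GRCm38 chr13:38345107-38500302, plus strand) had 4.12, 7.85 and 4.69 CPM in siNC replicates 1, 2 and 3, and 8.72, 9.92 and 10.1 CPM in siPkm2. Every siPkm2 library lay above every siNC library, and the lowest of siPkm2 was close to the highest of siNC, which was replicate 2. Such a separation was seen for 12% of all genes in the higher direction and 12.3% in the lower, and for no other member. Within the replicate pairs Bmp6 was 2.11, 1.26 and 2.15 times as high in siPkm2, on means of 5.55 ± 2.01 CPM in siNC and 9.56 ± 0.74 CPM in siPkm2 (SD, n = 3). Its log2 fold change was 0.78 ± 0.30 (SE), with an adjusted p of 0.245 without the block (edgeR, Benjamini-Hochberg). With the block it was 0.83 ± 0.21 and the adjusted p was 0.0448, a fold under 2. Leaving out replicate pair 2 raised the blocked value to 1.08 with an adjusted p of 0.00498, and leaving out pair 1 or pair 3 gave adjusted p-values of 0.189 and 0.231. The blocked fits without pair 1 and without pair 3 called 0 genes of the whole table.

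The counts behind Bmp6 were low, from 103 to 255 per library. The end of Bmp6 overlaps 224 bases of Txndc5, which lies on the opposite strand and had up to 14084 counts, and whether the counting used strand is not stated. Txndc5 had 564, 442 and 608 CPM in siNC and 531, 450 and 554 CPM in siPkm2, a log2 fold change of -0.07 ± 0.09 with the block (adjusted p 0.609).

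Bmp4 encodes a ligand that acts early in cartilage formation. Bmp4 (ENSMUSG00000021835, chr14:46383520-46390669, minus strand) had 124, 72.6 and 94.8 CPM in siNC and 45.7, 96.1 and 39.2 CPM in siPkm2. Replicate 2 was the lowest library of siNC and the highest of siPkm2, and the groups overlapped through it. Pairs 1 and 3 gave 0.368 and 0.414 times the siNC level, while pair 2 gave 1.32 times. Over all 3 pairs the log2 fold change was -0.69 ± 0.38 (adjusted p 0.407), and -0.78 ± 0.38 with the block (adjusted p 0.182).

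Without replicate 2 of both groups, Bmp4 was the only member called by the unblocked test, at -1.38 with an adjusted p of 0.0311, beside 2.06% of all genes called higher and 1.28% called lower in that fit. With the block and without pair 2 it was -1.37 (adjusted p 0.000215), whereas leaving out pair 1 or pair 3 gave -0.43 and -0.51 (adjusted p 0.546 and 0.526). The fits without pair 1 or pair 3 called 0 genes of the whole table. The call of Bmp4 therefore turned on leaving out pair 2. The deposited TPM of Bmp4, 223, 112 and 114 in siNC and 62.6, 162 and 73.0 in siPkm2, did not follow its counts in full. The gene length implied by counts over TPM varied 1.66-fold between libraries. This was more than for 98.8% of the tested genes above a minimum TPM in every library. In pair 3 the fold was 0.414 in CPM and 0.642 in TPM.

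The levels of Bmp2 and Gdf5 did not separate the groups. Bmp2 (ENSMUSG00000027358, chr2:133552159-133562885), a ligand that promotes chondrocyte maturation and bone formation, had 5.0, 6.88 and 4.33 CPM in siNC and 6.90, 6.11 and 3.75 CPM in siPkm2. It was higher in 1 pair and lower in 2, with a log2 fold change of 0.05 ± 0.33 (adjusted p 0.961). Gdf5 (ENSMUSG00000038259, chr2:155941023-155945367), the joint ligand, had 7.81, 64.2 and 8.58 CPM in siNC and 12.5, 50.3 and 10.3 CPM in siPkm2. Its level followed the replicate number and not the group, with a mean in replicate 2 that was 5.84 times that of replicates 1 and 3. The log2 fold change of Gdf5 was -0.14 ± 1.00 without the block and 0.17 ± 0.21 with it (adjusted p 0.962 and 0.580), so its sign was not fixed.

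Among the type I receptors, Bmpr1b tended the way of Bmp6 and Bmpr1a the other way, and neither passed the test over all 3 pairs. BMPR1A is widely expressed, while BMPR1B is the receptor that GDF5 prefers. Bmpr1a (ENSMUSG00000021796, chr14:34410734-34503341) had 144, 86.9 and 153 CPM in siNC and 117, 83.8 and 113 CPM in siPkm2, and was lower in 3 of 3 pairs although the groups overlapped. Its log2 fold change was -0.29 ± 0.25 (adjusted p 0.607) and, with the block, -0.26 ± 0.10 (adjusted p 0.113).

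Bmpr1b (ENSMUSG00000052430, chr3:141837136-142169425) had 2.72, 5.66 and 1.97 CPM in siNC and 4.99, 6.65 and 5.71 CPM in siPkm2. It was higher in 3 of 3 pairs, and the groups overlapped only because siNC replicate 2 lay above siPkm2 replicate 1. Its log2 fold change came to 0.74 ± 0.43 (adjusted p 0.423) and, with the block, to 0.85 ± 0.29 (adjusted p 0.0893). These values rest on 45 to 171 counts per library. In each pair the TPM of Bmpr1a over that of Bmpr1b was lower in siPkm2, 35.4, 11.6 and 62.1 in siNC against 16.9, 8.69 and 16.7 in siPkm2. An exact two-sided permutation test of this ratio, which ignored the pairs, gave p = 0.3 (0.75 after adjustment over 6 ratios). With 3 libraries against 3 it cannot give a p below 0.1.

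The type II receptor Bmpr2 (ENSMUSG00000067336, chr1:59763400-59879014), the partner that activates the type I receptors, was the steadiest member. It had 78.6, 70.9 and 76.1 CPM in siNC and 74.8, 71.3 and 60.1 CPM in siPkm2, with siPkm2 replicate 3 the lowest library. Bmpr2 had a log2 fold change of -0.13 ± 0.13 (adjusted p 0.661).

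**Figure D2:**
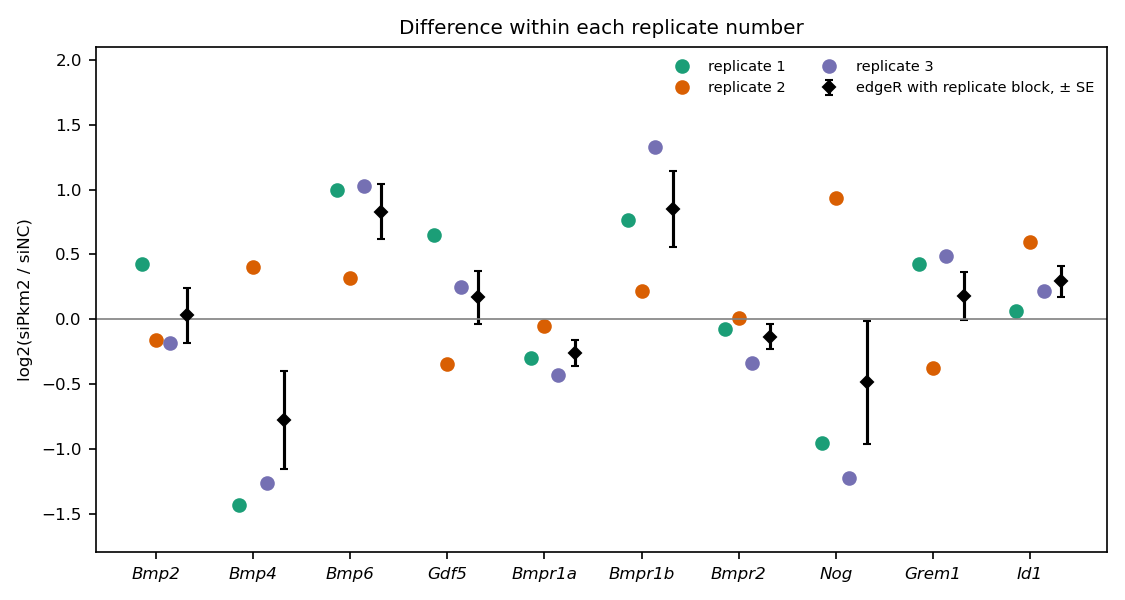
Log2 difference of CPM + 0.5 between siPkm2 and siNC within each replicate pair (coloured points), and the edgeR estimate with the replicate pairs as a block (black diamonds, bars ± SE). Bmp6, Bmpr1b and Id1 lie above 0 in all 3 pairs and Bmpr1a below 0. For Bmp4, Gdf5, Nog and Grem1 the pair 2 point lies on the other side of 0 from pairs 1 and 3. The pair 2 point of Bmpr2 does so too, close to 0.

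Of the antagonists, Nog followed the pattern of Bmp4. Noggin blocks BMP2, BMP4 and GDF5 and is needed for joint formation. Nog (ENSMUSG00000048616, chr11:89300638-89302332) had 14.3, 2.71 and 13.4 CPM in siNC and 7.13, 5.64 and 5.44 CPM in siPkm2. The siNC library of replicate 2 was the lowest of all 6 and the other siNC libraries were the highest, so the siPkm2 libraries lay between them. Nog was 0.498 and 0.407 times the siNC level in pairs 1 and 3 and 2.08 times in pair 2. The log2 fold change was -0.74 ± 0.58 (adjusted p 0.564), and -0.49 ± 0.47 with the block (adjusted p 0.478).

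Grem1 (ENSMUSG00000074934, chr2:113746164-113758646) encodes the antagonist with the higher TPM. It had 134, 568 and 238 CPM in siNC and 180.1, 437 and 334 CPM in siPkm2. Replicate 2 was the highest library in each group, and the groups overlapped over most of their range. Grem1 had a log2 fold change of 0.02 ± 0.57 (adjusted p 0.993), 0.18 ± 0.19 with the block (adjusted p 0.515), and the pairs differed in direction, with 1.34, 0.770 and 1.4 times the siNC level.

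Id1, a transcriptional inhibitor that BMP signalling induces directly, did not pass the test. Id1 (ENSMUSG00000042745, chr2:152736251-152737410) had 118, 31.3 and 67.6 CPM in siNC and 123, 47.5 and 78.6 CPM in siPkm2. Each siPkm2 library lay above the siNC library of its pair, by 1.04, 1.52 and 1.16 times, but the differences between pairs were larger than this and the groups overlapped. The log2 fold change was 0.20 ± 0.53 (adjusted p 0.888) and 0.29 ± 0.12 with the block (adjusted p 0.137).

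Across the members, 4 of 10 moved the same way in all 3 pairs, against 61.1% of all genes tested. Bmp6, Bmpr1b and Id1 were higher and Bmpr1a lower. Another 5, Bmp4, Gdf5, Bmpr2, Nog and Grem1, differed in pair 2 in the direction opposite to pairs 1 and 3, against 19.6% of all genes. For Bmpr2 the pair 2 difference was close to none, at 1.01 times the siNC level in CPM. In TPM Bmpr2 was lower in siPkm2 in all 3 pairs (0.955, 0.943 and 0.749 times). Replicate 2 of both groups lay outside the other 4 libraries for 4 members, above them for Gdf5 and Grem1 and below them for Bmpr1a and Id1. Over all genes tested these shares were 17.7% above and 18.4% below.

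With pair 2 left out, the blocked test called 4 members, Bmp6 and Bmpr1b higher and Bmp4 and Nog lower in siPkm2. All genes called in that fit made up 4.94% higher and 5.85% lower. Bmpr1b was then 1.18 (adjusted p 0.0155) and Nog -1.16 (adjusted p 0.00256). Bmpr1a at -0.38 (adjusted p 0.0129) and Grem1 at 0.45 (adjusted p 0.00724) passed on the p-value alone. These values rest on 2 replicate pairs.

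Marker genes of other cells also differed between libraries. The 7 osteoblast markers summed to 425, 36.9 and 253 CPM in siNC and 172, 45.7 and 82.3 CPM in siPkm2. Ibsp was the largest part of this sum in every library but siPkm2 replicate 2. Bglap and Dmp1 were at 0.53 CPM or below in every library. The sum was lower in pairs 1 and 3 and higher in pair 2, where the difference came from Alpl (10.3 against 25.9 CPM), while Ibsp, Bglap, Bglap2, Dmp1 and Phex were lower in pair 2 as well. The 5 osteoblast markers tested, Bglap2, Sp7, Ibsp, Alpl and Phex, had negative log2 fold changes, with Alpl at -0.013 in the blocked fit. Of them, 1 passed the blocked test (Ibsp, -1.45, adjusted p 0.03). The 6 synovial fibroblast markers summed to 129.8, 331 and 143 CPM in siNC and 215, 449 and 294 CPM in siPkm2. Of the 5 tested, 3 passed the blocked test, all higher (Pdpn, Cd34 and Has1). Over all genes tested, 12.3% passed it higher and 10.8% lower. Dpp4 was also higher in 3 of 3 pairs, at 1.07 with the block (adjusted p 0.059). Pdpn was the largest part of the fibroblast sum in every library. Thy1 of the same list was lower in 3 of 3 pairs, at -0.92 with the block (adjusted p 0.108). The 8 macrophage markers summed to 8.69 to 75.9 CPM in siNC and 13.3 to 62.0 CPM in siPkm2, highest in replicate 2, where most came from Cd68 and Cd14, while Adgre1 and Ptprc were at 0.20 CPM or below. Endothelial and muscle markers summed to at most 3.42 and 12.5 CPM. Of the chondrocyte, macrophage and muscle lists, 1 marker each passed the blocked test, all higher in siPkm2, namely Matn3 (0.86, adjusted p 0.021), Cd14 (1.35, adjusted p 0.043) and Des (2.46, adjusted p 0.036). No marker on these lists was at 0 in all 6 libraries. Their part in the differences of the BMP genes was not tested.

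**Figure D3:**
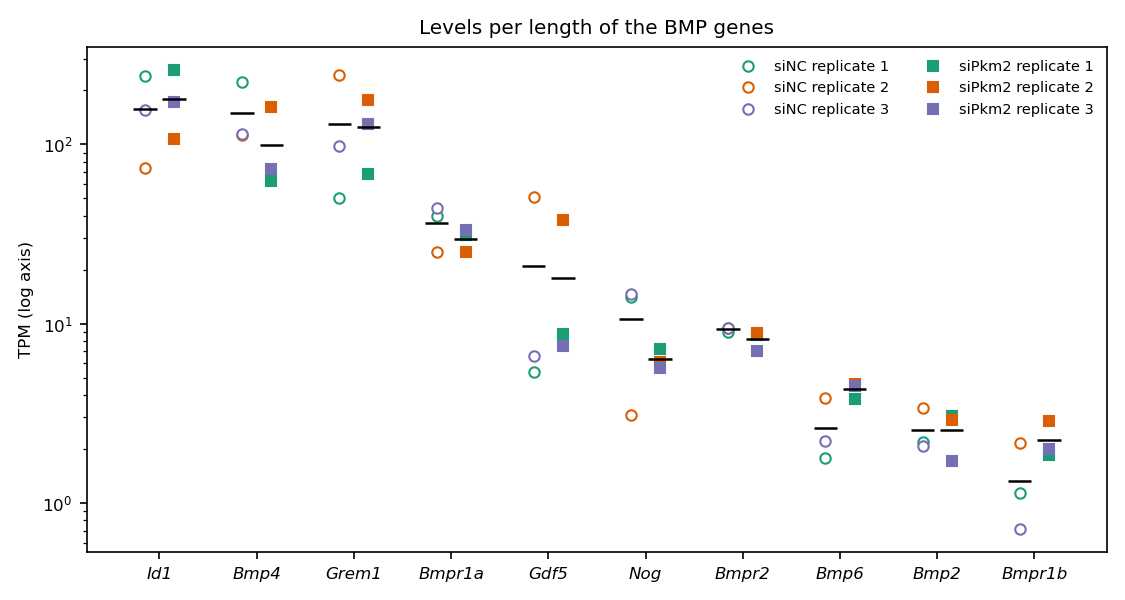
Deposited TPM of the 10 genes on a log axis, ordered by the siNC mean, with open circles for siNC, filled squares for siPkm2, colours for replicate numbers and black bars for means. Id1, Bmp4 and Grem1 form the top group at means of 99.1 to 179.6 TPM, and Bmp6, Bmp2 and Bmpr1b the lowest at 1.33 to 4.30 TPM.

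Compared per length, Id1 had the highest mean TPM of the 10 in siNC (156), followed by Bmp4 (149.6), Grem1 (130.4), Bmpr1a (36.3), Gdf5 (20.9), Nog (10.6), Bmpr2 (9.28), Bmp6 (2.60), Bmp2 (2.54) and Bmpr1b (1.33). Neighbours in this order overlapped in range except at 2 steps, from Grem1 to Bmpr1a and from Bmpr2 to Bmp6. In siPkm2 the order was Id1 (179.6), Grem1 (125.5), Bmp4 (99.1), Bmpr1a (29.8), Gdf5 (18), Bmpr2 (8.18), Nog (6.32), Bmp6 (4.30), Bmp2 (2.54) and Bmpr1b (2.23). There the neighbours separated at 3 steps, from Bmp4 to Bmpr1a, from Nog to Bmp6 and from Bmp6 to Bmp2. Both groups thus held Bmp4 as the main ligand of the 4, Bmpr1a as the main receptor of the 3 and Grem1 as the main antagonist of the 2, by mean TPM.

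Bmp4 made up 96.0%, 66.0% and 91.3% of the TPM of the 4 ligands in siNC and 80.0%, 78.1% and 84.2% in siPkm2, and Gdf5 was the next ligand. The 4 ligands over the 2 antagonists came to 3.60, 0.693 and 1.10 in siNC and 1.04, 1.13 and 0.636 in siPkm2. Bmp4 over Grem1 was 4.42, 0.463 and 1.16 in siNC and 0.918, 0.910 and 0.559 in siPkm2. Both ratios spread more within siNC than within siPkm2, and siNC replicate 2 was the lowest siNC library in each. The shares and ratios with Bmp4 use its deposited TPM, whose implied gene length varied 1.66-fold between libraries. That length was 972 bases in siNC replicate 1 and 1612 in siNC replicate 3, and its part in the spread was not tested. Bmp4 over Bmp6 was 126, 29.3 and 51.4 in siNC and 16.5, 35.0 and 16.2 in siPkm2, lower in pairs 1 and 3 and higher in pair 2. None of the 6 ratios compared passed an exact permutation test between the groups (p from 0.2 to 0.9, adjusted p from 0.75 to 0.90). This test ignored the pairs and cannot go below 0.1.

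A list of 54 other genes of the pathway was read from the same fit, and 46 were tested. None was called without the block, and 5 passed an unadjusted p under 0.05. DESeq2 without the block called 3 of the list (Fstl1, Gdf6 and Twsg1) and 430 genes in all. With the block 2 were called, both lower (Gdf6 and Fstl1), and Kcp and Smad6 passed on the p-value alone, also lower. In the table as a whole 17.6% of genes passed the unadjusted p. With the block 3.18% were called lower and 10.8% were lower on the adjusted p at any fold. The edgeR counts of the list lay near or below these shares. The 3 genes called by DESeq2 without the block were a larger part of the list than the 430 were of the table. This difference rests on 3 genes and was not tested. No gene of the list was called higher by edgeR over all 6 libraries. The median log2 fold change with the block was -0.07 over the 46, against -0.01 over all genes, and by role it ran from -0.29 for 6 ligands to 0.06 for 9 intracellular SMADs and regulators.

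**Figure D4:**
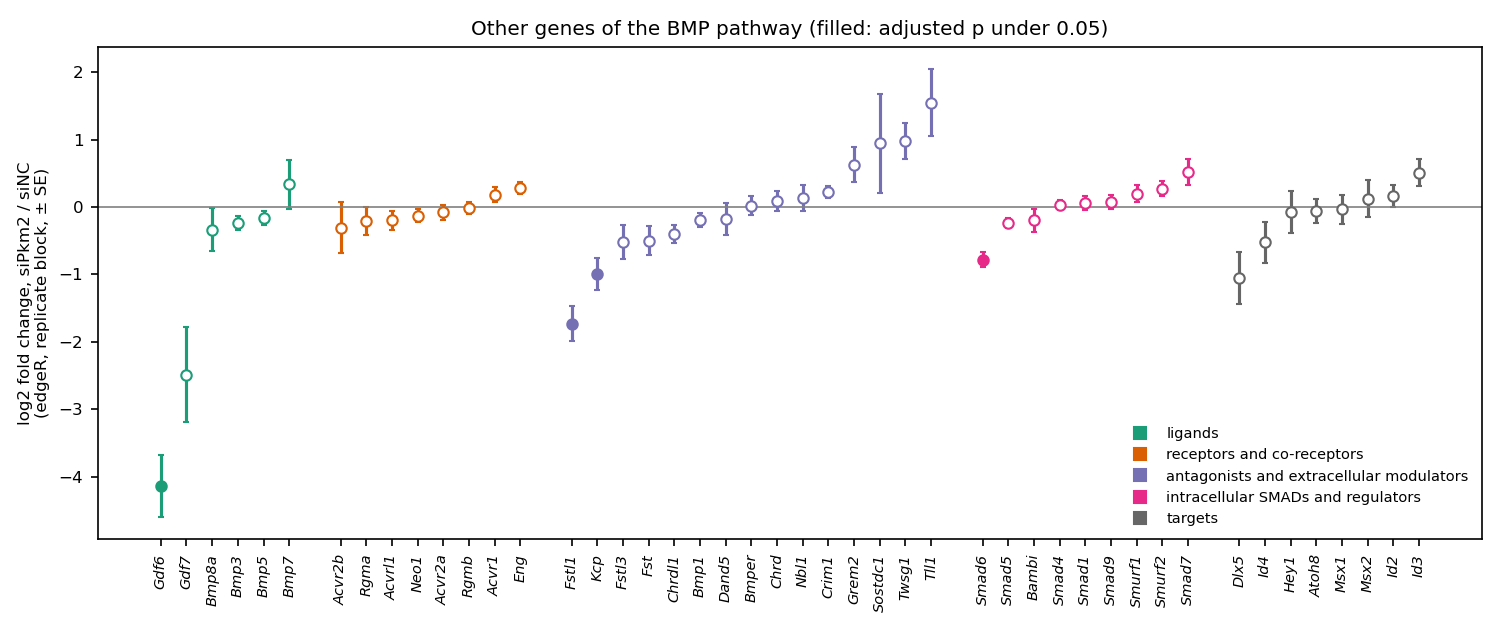
Log2 fold change of siPkm2 over siNC for the 46 tested genes of the wider BMP list, by role, from edgeR with the replicate pairs as a block (bars ± SE). Filled points passed an adjusted p under 0.05 and are Gdf6, Fstl1, Kcp and Smad6, all below 0.

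Gdf6, a ligand close to GDF5 that also acts in joints, fell in the blocked test and was lower in all 3 pairs. It had 6.69, 9.75 and 9.28 CPM in siNC and 0.19, 1.13 and 0.27 CPM in siPkm2, from 167 to 241 counts against 4 to 29. The groups were far apart, and replicate 2 was the highest library of each. With the block the log2 fold change was -4.13 ± 0.46 (adjusted p 0.0118), and -3.98 ± 0.69 without it (adjusted p 0.10). The blocked call was lost when pair 1 or pair 3 was left out (-3.84 and -3.81, adjusted p 0.0662 and 0.0902). Those fits called 0 genes of the whole table, so the loss was not particular to Gdf6. Its relative Gdf7 had 0.84, 0.53 and 1.09 CPM in siNC and 0.05, 0.27 and 0.09 CPM in siPkm2, on at most 25 counts, with a blocked value of -2.49 ± 0.70 that missed the threshold (adjusted p 0.0564). Of the other ligands, Bmp3, Bmp5, Bmp7 and Bmp8a had adjusted p-values of 0.166 to 0.520 with the block.

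Fstl1, a secreted glycoprotein that binds BMP4 and its receptors, also fell in the blocked test. Fstl1 had 871, 946 and 1065 CPM in siNC and 164, 457 and 322 CPM in siPkm2. The groups did not overlap, and the smallest difference was in pair 2. The blocked log2 fold change was -1.73 ± 0.26 (adjusted p 0.0164), and -1.61 ± 0.38 without the block (adjusted p 0.136). Without pair 1 or pair 3 the blocked value was -1.39 or -1.73 and the call was lost (adjusted p 0.0676 and 0.106), in fits that called no gene at all. Kcp, a secreted modulator that can enhance BMP signalling, had 1.28, 9.02 and 4.38 CPM in siNC and 0.61, 5.56 and 1.78 CPM in siPkm2. It was lower in each pair although the groups overlapped, at -0.99 ± 0.24 with the block (adjusted p 0.0376) and -0.88 ± 0.94 without it (adjusted p 0.685). Without pair 1 or pair 3, in the same fits, the blocked adjusted p of Kcp was 0.135 or 0.227.

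Smad6, an inhibitory SMAD that BMP signalling itself induces, had 63.4, 38.3 and 66.7 CPM in siNC and 34.7, 26.3 and 35.1 CPM in siPkm2. The lowest siNC library, replicate 2, was above all siPkm2 libraries. The log2 fold change was -0.78 ± 0.11 with the block (adjusted p 0.0142) and -0.81 ± 0.25 without it (adjusted p 0.185). Leaving out pair 1 or pair 3 gave blocked adjusted p-values of 0.0855 and 0.107, in fits that called no gene of the whole table. Smad5, which carries the signal to the nucleus, was at -0.24 ± 0.08 with the block (adjusted p 0.0812).

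**Figure D5:**
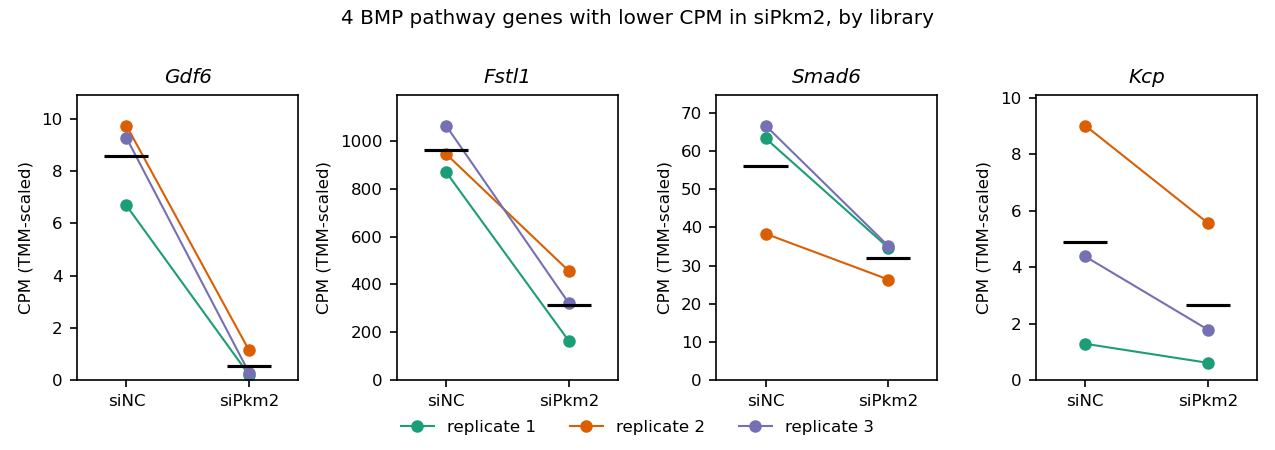
TMM-scaled CPM of Gdf6, Fstl1, Smad6 and Kcp in each library (y axes start at 0), with lines joining equal replicate numbers and black bars for means. All 12 lines slope down, and the groups separate for Gdf6, Fstl1 and Smad6 but not for Kcp.

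The remaining genes named by rule did not pass. Among receptors, the co-receptor Eng had 0.28 ± 0.09 and the type I receptor Acvr1 0.18 ± 0.11 with the block (adjusted p 0.0724 and 0.265), and the 8 receptors and co-receptors tested held no call. Of the targets, Dlx5, a homeobox gene of bone and cartilage, was at -1.06 ± 0.39 (adjusted p 0.104), with 11.5, 1.90 and 12.2 CPM in siNC and 5.69, 1.95 and 3.06 CPM in siPkm2. Id3, a relative of Id1, was at 0.51 ± 0.20 (adjusted p 0.123), higher in 3 of 3 pairs. None of the 8 targets in the list passed with the block, and 1 of the 8 (Id3) moved the same way in all 3 pairs.

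Twsg1 was chosen after its values were seen. It encodes a secreted protein that binds BMPs together with Chordin, and had 182, 279 and 186 CPM in siNC and 570.1, 329 and 387 CPM in siPkm2. The groups did not overlap and pair 2 differed least. The blocked log2 fold change was 0.98 ± 0.27, a fold under 2, with an adjusted p of 0.0518, just outside the threshold. Without the block it was 0.99 ± 0.28 (adjusted p 0.171).

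The genes whose log2 CPM followed Bmp6 most closely over the 6 libraries, among 9770 genes with a mean of at least 10 CPM, were Hfe (Pearson r 0.998), Hpse2 (0.996) and Emc3 (0.994). Hfe had 17.4, 40.6 and 19.7 CPM in siNC and 42.8, 55.0 and 53.5 CPM in siPkm2, with the order of the 3 siNC libraries the same as for Bmp6. These values describe 6 libraries that share their groups and pairs.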

How the data were processed

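RNA-seq of 3 siNC and 3 siPkm2 libraries of primary mouse chondrocytes was read from the deposited files. The authors deposited estimated counts per gene, some fractional and not normalized, and TPM values scaled within each library, which were the same in the table and in the files of single libraries. The authors' comparison (fold change as a ratio, log2 fold change, p-value and adjusted p-value), group means of TPM and annotation terms were in the same table and were not used. The submitters' processing notes name mm9 and edgeR, and the table is named for DESeq2. The aligner, the counting tool and the strand setting are not given in the sources used here. Positions come from GENCODE M21 on GRCm38, in which 52083 of 55416 identifiers were found, and no coordinate was converted.

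Estimated counts were rounded and filtered with filterByExpr on the group (15269 genes kept). Counts were compared in R 4.3.3 with edgeR 4.0.16 (TMM factors, quasi-likelihood test), with Benjamini-Hochberg adjustment across the 15269 genes. Calls needed a fold over 2 and an adjusted p under 0.05, as in the study's methods. CPM was scaled by TMM factors, and differences within pairs used log2(CPM + 0.5). The replicate numbers come from the labels. Deviations from the group mean correlated at 0.716, 0.794 and 0.720 for equal numbers and at 0.217 or less for different ones, so the numbers were taken as pairs and the blocked values are given where they bear on a call. No 2 libraries of a group were duplicates, since 53.6% to 73.7% of genes differed beyond counting noise.

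The analysis was repeated with other scaling factors (RLE, upper-quartile), DESeq2 1.42.0, limma 3.58.1 on log2(TPM + 1) and log2(TPM + 0.1), all genes unfiltered, a minimum of 10 counts per library, no fold threshold, leaving out libraries or pairs, and the block. The scripts were tested on simulated data. The members, the wider pathway list and the marker lists were chosen with earlier results of these data known. Named were all members, Pkm, and of the wider list every gene called by edgeR over all 6 libraries, with or without the block. Also named were, per role, the 2 genes of that list with the lowest blocked p. The 3 genes most like a member that passed the blocked test were named as well.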

Additional observations from a re-analysis of the deposited data

How the results depend on the processing

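The 10 members were called 0 times without the block and 0 times with the replicate block. The counts that moved were 1 without replicate 2 of both groups (Bmp4), 4 with the block and without pair 2, and 1 with the block and no fold threshold (Bmp6). Of the wider list, 0 genes were called by edgeR without the block, 3 by DESeq2, 2 with the replicate block, 3 by DESeq2 with the block and 4 with the block and no fold threshold, and leaving out libraries or pairs gave 0 to 7. The 3 called by DESeq2 with the block were Fstl1 and Gdf6, both lower, and Tll1, which was higher. In edgeR with the block Tll1 was at 1.54 (adjusted p 0.0757). Over all genes the count was 0, but 3 with upper-quartile factors, 430 by DESeq2, 1 by limma on log2(TPM + 0.1), 9 with no filter, 3 with at least 10 counts in every library, 890 with the replicate block, 1028 by DESeq2 with the block and 3524 with the block and no fold threshold. Leaving out a library or a pair gave 0 to 1639, with 105 without siNC replicate 2 and 507 without replicate 2 of both groups. With the block, the 890 became 0 without pair 1, 1639 without pair 2 and 0 without pair 3 (3937, 7449 and 3598 at an unadjusted p under 0.05). The count thus differed with the pair left out, and each of these fits rested on 2 pairs. Of the members, Bmp4, Bmp6, Bmpr1a, Bmpr1b, Bmpr2 and Nog kept their sign in all 21 alternatives. Bmp2 reversed to -0.019 with upper-quartile factors, -0.0057 and -0.011 with limma on log2(TPM + 1) and log2(TPM + 0.1), and -0.18 (-0.19 with the block) without pair 1, and ranged from -0.14 to 0.27 when single libraries were left out. Gdf5 reversed to 0.12 and 0.15 with limma on log2(TPM + 1) and log2(TPM + 0.1), 0.17 with the block and 0.19 with DESeq2 and the block, 0.47 (0.46 with the block) without pair 2 and 0.13 with the block and without pair 3, and ranged from -1.23 to 1.58. Grem1 reversed to -0.041 with upper-quartile factors, -0.064 without pair 1 and -0.18 without pair 3, and ranged from -0.34 to 0.77. Id1 ranged from -0.21 to 0.76 and was negative without siNC replicate 2 or siPkm2 replicate 1. The cause of these changes was not tested. Bmp2, Bmp6, Bmpr1b and Nog had at most 358 counts per library, and 3 libraries a group limit every value.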
